A study of Mus musculus with 8 samples.

Results

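Transcripts of 34 genes that mark T cells, natural killer (NK) cells and B cells were followed in whole mouse kidney. The genes were taken by symbol from a fixed list, and all 34 were found among the 20240 genes used. They comprise the T cell receptor complex and its coreceptors, proximal signalling proteins, costimulatory and cytokine receptors, lineage transcription factors, cytotoxic effectors, B cell genes and the cytokine gene Ltb.

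Poly(A) RNA was sequenced in 8 kidney libraries of C57BL/6 mice, 2 in each of 4 groups. PKD_FP kidneys came from mice with autosomal dominant polycystic kidney disease given FP, flavopiridol by the series design, which blocks CDK9 and other cyclin-dependent kinases. PKD_DMSO kidneys were polycystic and received DMSO, WT_FP kidneys were wild type and received FP, and WT_DMSO kidneys were wild type and received DMSO. The sources used here do not state the mutated gene, a Cre driver, the dose, or the mice's age and sex. The labels do not say whether the 2 replicates of a group are separate animals, so a p-value reflects the spread of these samples alone, which may be technical.

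T cells recognise antigen through a receptor that signals through the CD3 chains and the zeta chain. The kinase LCK phosphorylates these chains, ZAP-70 binds them, and the adaptor LAT passes the signal on. NK cells and cytotoxic T cells kill with perforin and granzymes, and B cells signal through CD79A and CD79B next to surface immunoglobulin. A healthy kidney holds few lymphocytes beside its resident macrophages, and immune cells gather around cysts in polycystic disease.

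Upstream sequence is shown for 4 of the members that passed a test below, Ltb, Cd3g, Cd3d and Lck. Each is the 150 bases before the annotated start site, 5′ to 3′ on the gene's strand, from RefSeq on GRCm38.p6. Capitals mark matches on either strand to 3 motifs, TGTGGT for RUNX factors, GGAAGT for ETS factors and, for NF-kB, GGG and CC with 5 bases of any kind between them. Ltb lies at chr17:35194357-35194506 on the plus strand, Cd3g at chr9:44980432-44980581 on the minus strand, Cd3d at chr9:44981636-44981785 on the plus strand and Lck at chr4:129573642-129573791 on the minus strand.
Ltb: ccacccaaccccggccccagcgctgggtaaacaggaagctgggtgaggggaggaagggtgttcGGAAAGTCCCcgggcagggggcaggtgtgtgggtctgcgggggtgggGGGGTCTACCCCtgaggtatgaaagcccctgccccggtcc
Cd3g: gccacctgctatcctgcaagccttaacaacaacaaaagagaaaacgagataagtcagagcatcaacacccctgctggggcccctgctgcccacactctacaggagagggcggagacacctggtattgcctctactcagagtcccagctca
Cd3d: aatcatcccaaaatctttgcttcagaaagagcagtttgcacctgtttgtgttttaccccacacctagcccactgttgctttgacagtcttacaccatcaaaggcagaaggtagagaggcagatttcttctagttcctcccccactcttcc
Lck: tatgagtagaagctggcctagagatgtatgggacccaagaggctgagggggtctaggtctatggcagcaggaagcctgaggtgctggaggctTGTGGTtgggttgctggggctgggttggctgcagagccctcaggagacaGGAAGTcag

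Ltb held 4 matches to the NF-kB letters, some overlapping, in 2 stretches. Lck held 1 RUNX and 1 ETS match, and Cd3g and Cd3d, which are neighbours transcribed away from each other, held none of the 3. The windows of Lat and Zap70, which also passed a test but are not printed, held none either. Over all 27025 genes in the promoter table, the RUNX letters occurred in the 150 bases before a start site of 9.73%, the ETS letters of 15.6% and the NF-kB letters of 38.6%. For these shares a gene with several windows counted if any of them matched, whereas 1 window per gene is printed above. Lck has 2 windows in that table. Of the 23 members there, counted in the same way, 7 held the RUNX letters, 7 the ETS letters and 10 the NF-kB letters. These matches describe letters and were not tested as binding sites.

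Lymphocyte transcripts were scarce in every group. Values are FPKM, fragment counts scaled for transcript length and library depth. Together the 34 genes made up 0.00643% and 0.00665% of all FPKM in PKD_FP libraries and 0.00346% and 0.00405% in PKD_DMSO libraries, against 0.00204% and 0.00209% in WT_FP libraries and 0.00325% and 0.00298% in WT_DMSO libraries. The 2 PKD_FP libraries were the highest and the 2 WT_FP libraries the lowest. The median of the members' group means was 0.483 FPKM in PKD_FP and 0.217 in PKD_DMSO, against 0.285 in WT_FP and 0.378 in WT_DMSO.

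A group mean of at least 1 FPKM was reached by 13 members in PKD_FP, 7 in PKD_DMSO, 1 in WT_FP and 7 in WT_DMSO. Just inside that line were Cd3e in PKD_FP (1.04) and Lat in PKD_DMSO (1.09), and just outside it Cd22 in PKD_FP (0.99) and in PKD_DMSO (0.945). The line in WT_FP fell between Cd8a (1.59) and Lat (0.905), and in WT_DMSO between Cd3d (1.03) and Cd22 (0.93). Of the 34 members, 17 stayed below 1 FPKM in every library, 4 (Cd3e, Il7r, Nkg7 and Gzma) reached it in 1 library, and 13 reached it in at least 2. Those 13 entered the test, and 3 of them, Cd3g, Zap70 and Blk, did so only through the PKD_FP libraries.

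**Figure D1:**
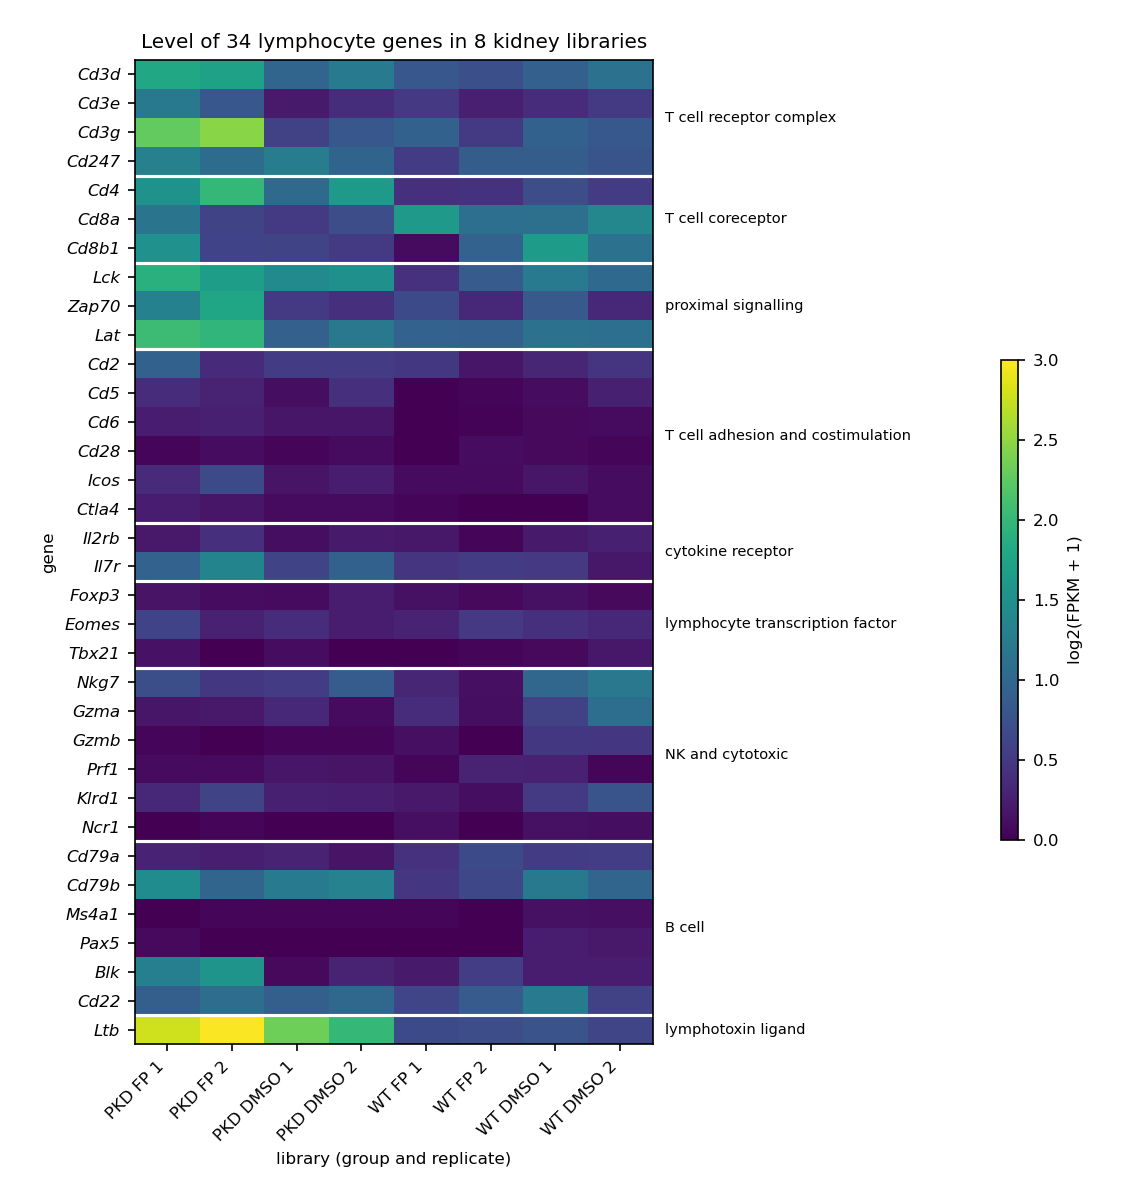
Level of each of the 34 genes (rows, ordered by role) in the 8 libraries (columns), as log2(FPKM + 1). Cd3g, Lat, Zap70, Blk and Ltb are brightest in both PKD_FP libraries, Gzmb, Nkg7 and Pax5 in the WT_DMSO libraries, and most rows stay dark in every library.

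The spacing of low values gave an estimate of depth. On a transcript of 1 kb 1 fragment was worth 0.0554 to 0.0716 FPKM over the 8 libraries, or 0.0478 to 0.0618 FPKM with lengths shortened by 200 bases. At the first estimate the members rested on about 7 (Ncr1) to 499 (Cd4) fragments summed over all 8 libraries, and 19 of the 34 on fewer than 100. Adipose transcripts set 1 library apart, since Adipoq, the adiponectin gene, stood at 47.34 FPKM in WT_FP replicate 2 and at 0.25 to 7.4 in the other libraries. All 10 kidney tubule markers were present in every library, from 3.67 FPKM upward. In whole-kidney RNA, fewer cells of a type and less RNA per cell cannot be told apart.

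Comparing polycystic with wild-type kidneys under DMSO asks what the disease changed without drug. Of the members, 1 passed the test, and it rose. Ltb encodes lymphotoxin beta, a membrane cytokine of the tumour necrosis factor family made by lymphocytes that organises lymphoid tissue. It lies on chromosome 17 from 35194507 to 35196305 (GRCm38). Ltb was at 4.04 and 3.01 FPKM in PKD_DMSO libraries, against 0.70 and 0.54 in WT_DMSO libraries. Both polycystic libraries were above both wild-type ones, and the log2 fold change on log2(FPKM + 1) was 1.47 ± 0.20 (SE, n = 2 each; limma with Benjamini-Hochberg over all genes, adjusted p = 0.00552).

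By this test 14.8% of all 14391 genes were higher and 7.52% lower in PKD_DMSO, so 1 of the 13 members tested is below that background. Without the low-value filter all 34 members could be tested. Ltb was again higher (9.18% of all genes were), and Gzmb and Pax5 were lower (4.6% of all genes were). At an unadjusted p under 0.05 there were 3 of 34 members higher and 7 lower (Cd79a, Gzma, Gzmb, Klrd1, Ms4a1, Ncr1 and Pax5), beside 19.9% and 10.6% of all genes. Both PKD_DMSO values were above both WT_DMSO values for 8 members and below them for 11, where 34.5% and 21.9% of all genes were. The median log2 fold change over the 34 members in that fit was −0.05, beside 0.03 over all 20240 genes.

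Gzmb, which encodes the cytotoxic protease granzyme B, was at 0.04 and 0.04 FPKM in PKD_DMSO libraries, against 0.40 and 0.39 in WT_DMSO libraries. It was at 0.04 and 0.00 FPKM in PKD_FP and 0.09 and 0.00 in WT_FP libraries. The DMSO levels correspond to about 1 and 1 fragments against about 8 and 9. The log2 fold change without the filter was −0.42 ± 0.05 (limma with Benjamini-Hochberg, adjusted p = 0.00956). Pax5, the transcription factor gene that maintains B cell identity, was listed at 0 in both PKD_DMSO libraries and at 0.18 and 0.15 FPKM in the WT_DMSO libraries, with a value of −0.22 ± 0.04 on that scale (limma, adjusted p = 0.0189). Pax5 was at 0.05 and 0.00 FPKM in PKD_FP and listed at 0 in both WT_FP libraries. Neither gene entered the test with the filter, and both sizes depend on the 1 FPKM added before the logarithm.

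Of the CD3 and proximal signalling genes, 0 passed under DMSO, with 0 at an unadjusted p under 0.05 (limma), where 24.9% of all genes were higher and 13.1% lower. Cd3d, on chromosome 9, was at 0.97 and 1.33 FPKM in PKD_DMSO, against 0.89 and 1.18 in WT_DMSO, a log2 difference of 0.08 with a 95% interval of −0.38 to 0.54. Lat, on chromosome 7, was at 0.89 and 1.29 FPKM in PKD_DMSO, against 1.17 and 1.14 in WT_DMSO, a difference of −0.05 (−0.49 to 0.39). For both genes the groups overlapped. At levels near 1 FPKM the 1 FPKM added before the logarithm shrinks differences, so these intervals cannot be read as fold changes in FPKM. Lck was at 1.69 and 1.84 FPKM in PKD_DMSO, against 1.36 and 1.04 in WT_DMSO, with no overlap, and a difference of 0.33 (−0.20 to 0.86; limma, adjusted p = 0.318). Cd3g was at 0.51 and 0.76 FPKM against 0.91 and 0.78, and Zap70 at 0.42 and 0.32 against 0.79 and 0.27. Among B cell genes, Cd79b was at 1.37 and 1.52 FPKM in PKD_DMSO, against 1.31 and 0.97 in WT_DMSO, and Blk at 0.05 and 0.22 against 0.17 and 0.17. The intervals of all 4 differences included 0.

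The coreceptor genes did not pass the test. Cd4, the helper T cell coreceptor that mouse dendritic cell and monocyte subsets can also express, was at 1.05 and 2.07 FPKM in PKD_DMSO libraries, against 0.63 and 0.44 in WT_DMSO libraries. Its log2 difference was 0.71 (0.07 to 1.35; limma, adjusted p = 0.103). Cd8a, one chain of the cytotoxic T cell coreceptor, was at 0.42 and 0.63 FPKM in PKD_DMSO, against 1.15 and 1.62 in WT_DMSO, a difference of −0.64 (−1.31 to 0.03; adjusted p = 0.145). For the partner chain gene Cd8b1 the values were 0.53 and 0.42 FPKM against 2.16 and 1.17, a difference of −0.83 (−1.81 to 0.15; adjusted p = 0.188).

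Markers of other leukocytes moved with this comparison. Of 19 macrophage and monocyte genes 18 were higher in PKD_DMSO and 0 lower, and their summed level was 792 and 1500 FPKM in PKD_DMSO against 166 and 98.7 in WT_DMSO. Among 16 pan-leukocyte genes 9 were higher and 0 lower, with sums of 184 and 310 FPKM against 89.1 and 66.8. None of the macrophage markers was listed at 0 in any library. Of 10 tubule genes 4 were lower and 0 higher, with sums of 2120 and 1870 FPKM in PKD_DMSO against 4360 and 5010 in WT_DMSO. The part of these cells in the Cd4 and Ltb values was not tested.

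Comparing polycystic with wild-type kidneys under FP gave the most member calls. Of the 13 members tested 8 rose, namely Ltb, Cd3g, Cd3d, Cd4, Lck, Zap70, Lat and Blk, and 0 fell. By the same test 8.71% of all genes were higher and 5.23% lower. Because Cd3g, Zap70 and Blk entered the test only through their PKD_FP values, the fit of all 34 members without the filter is given beside it, and it held 8 higher (Cd6 in place of Zap70) and 0 lower, beside 4.81% higher and 2.74% lower of all genes. At an unadjusted p under 0.05 that fit had 16 of 34 members higher and 1 lower (Cd79a), beside 15.4% and 10.3% of all genes. The median log2 fold change over the 34 members there was 0.31, beside 0.01 over all genes. Both PKD_FP values were above both WT_FP values for 20 members and below them for 1 (Cd79a), where 29.2% and 22.2% of all genes were.

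Ltb was at 5.88 and 6.88 FPKM in PKD_FP libraries, against 0.59 and 0.64 in WT_FP libraries. Its log2 fold change of 2.19 ± 0.20 (SE, n = 2 each; limma with Benjamini-Hochberg, adjusted p = 0.00421) was the largest among the members tested. The call held in each of the 14 alternatives run.

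The CD3 genes encode the signalling chains of the T cell receptor. Cd3g, on chromosome 9 from 44969572 to 44980431, was at 3.86 and 4.52 FPKM in PKD_FP libraries, against 0.91 and 0.42 in WT_FP libraries. The log2 fold change was 1.65 ± 0.22 (limma, adjusted p = 0.0102). Cd3d, its neighbour from 44981769 to 44987052 in GENCODE, which places its start within the RefSeq window printed above, was at 2.45 and 2.30 FPKM against 0.76 and 0.66, a log2 fold change of 0.98 ± 0.19 (adjusted p = 0.0239). The 2 groups were apart for both genes, and the values of the 2 PKD_FP libraries lay close together. Cd3e, the third gene of that locus, was at 1.32 and 0.76 FPKM against 0.41 and 0.20 and did not enter the test, while Cd247, the zeta chain gene on chromosome 1, was at 1.48 and 1.09 FPKM against 0.45 and 0.84 and did not pass (0.48, −0.06 to 1.02; limma, adjusted p = 0.201).

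Lat and Lck, which act directly below the receptor, rose with and without the filter, and Zap70 passed with it alone. Lat encodes the adaptor that ZAP-70 phosphorylates and was at 3.15 and 2.92 FPKM in PKD_FP libraries, against 0.92 and 0.89 in WT_FP libraries (log2 fold change 1.08 ± 0.19; limma, adjusted p = 0.0174). Lck, the Src-family kinase gene of T cells on chromosome 4, was at 2.75 and 2.22 FPKM against 0.34 and 0.82 (1.15 ± 0.22; adjusted p = 0.0226). Zap70, on chromosome 1, was at 1.5 and 2.41 FPKM against 0.59 and 0.27 (1.04 ± 0.27; adjusted p = 0.0483). Without the filter, which Zap70 met only through PKD_FP, its adjusted p was 0.0547 (limma), and with median-of-ratios scaling 0.0517.

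For all 3 genes both PKD_FP libraries were above both WT_FP libraries. Blk, a Src-family kinase gene of B cells that is also expressed in gamma-delta T cells, on chromosome 14, was at 1.45 and 1.93 FPKM in PKD_FP libraries, against 0.16 and 0.46 in WT_FP libraries (1.04 ± 0.22; limma, adjusted p = 0.0299). Cd4, on chromosome 6, was at 1.89 and 2.99 FPKM against 0.33 and 0.36 (1.34 ± 0.27; adjusted p = 0.0256). Both PKD_FP libraries were above both WT_FP libraries for these 2 genes. The other coreceptor genes did not pass. Cd8a was at 1.23 and 0.53 FPKM in PKD_FP libraries, against 2.05 and 1.14 in WT_FP libraries (−0.47, −1.14 to 0.20; limma, adjusted p = 0.306). Cd8b1 was at 1.86 and 0.52 FPKM against 0.06 and 0.92 (0.55, −0.43 to 1.52; adjusted p = 0.407). The groups overlapped for both. Cd6, a T cell adhesion receptor gene, was at 0.18 and 0.20 FPKM against 0.00 and 0.02, and its call (0.24 ± 0.04; adjusted p = 0.0243) comes from the fit without the filter. Under DMSO it was at 0.13 and 0.13 FPKM in PKD_DMSO, against 0.05 and 0.06 in WT_DMSO.

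**Figure D2:**
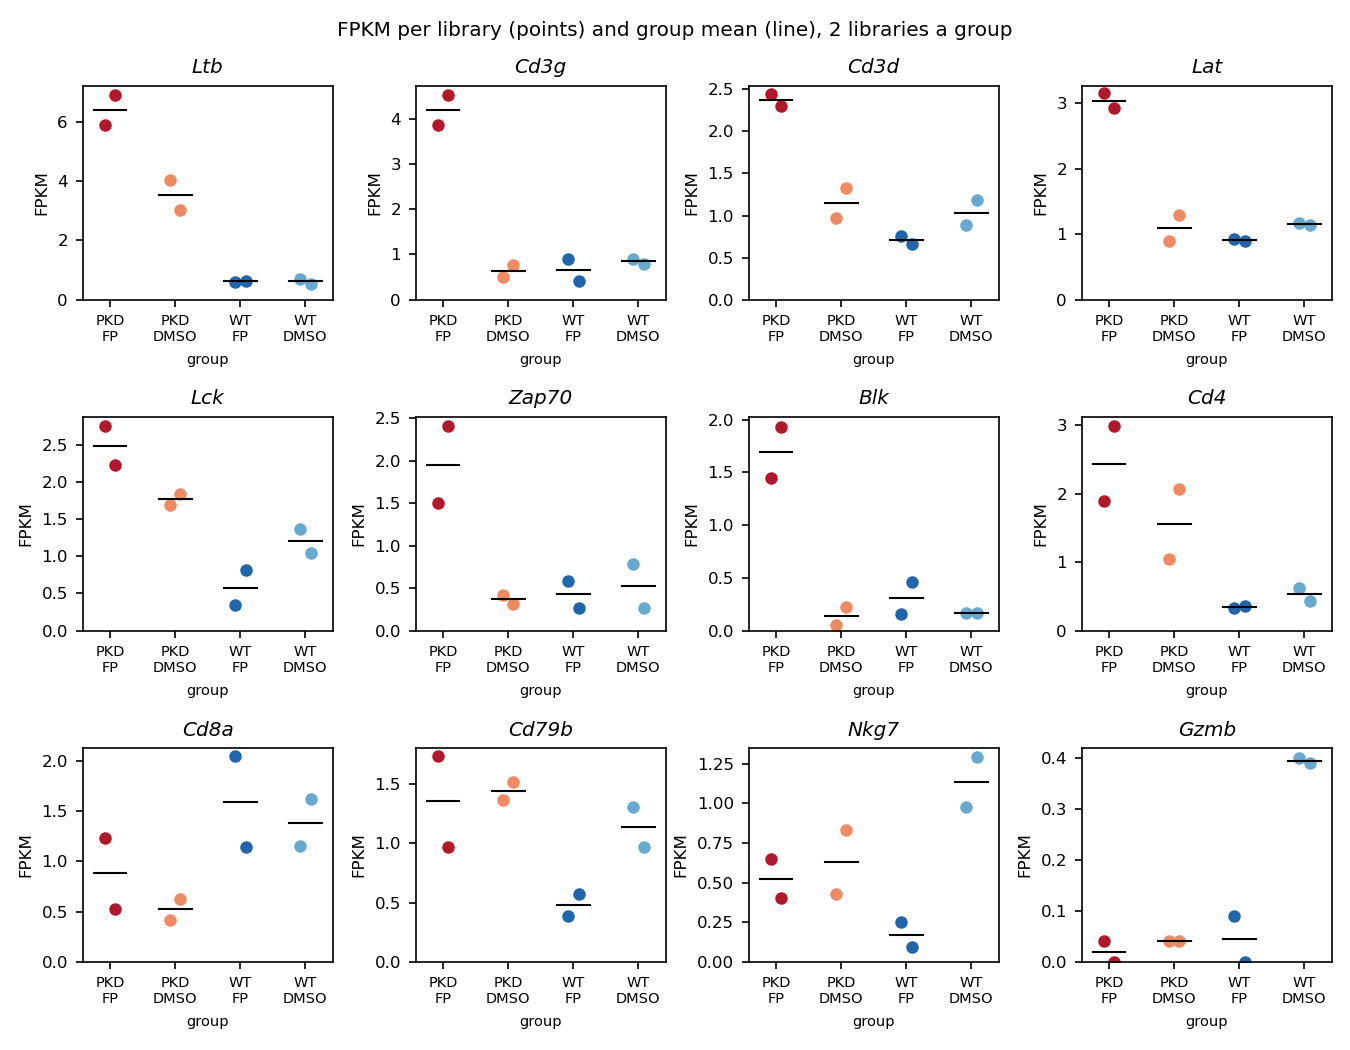
FPKM of 12 members in each library (points) with the group mean (line), 2 libraries a group, each panel on its own linear axis from 0. Ltb is high in both polycystic groups, Cd3g, Lat, Zap70 and Blk are highest in the 2 PKD_FP libraries, and Gzmb is at 0.39 and 0.40 FPKM in WT_DMSO and at most 0.09 elsewhere.

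These calls rest on few libraries. Without PKD_FP replicate 1 only Cd3g and Ltb passed, without PKD_FP replicate 2 only Ltb, without WT_FP replicate 1 only Cd3g and Ltb, and without the adipose-rich WT_FP replicate 2 only Cd3g, Lck and Ltb. Without either PKD_DMSO replicate Zap70 (adjusted p = 0.0844 and 0.0829) and Blk (0.0533 and 0.0518) did not pass (limma). The sizes depend on the 1 FPKM added before the logarithm. With 0.1 FPKM added, the log2 fold changes were 3.18 for Ltb, 2.56 for Cd3g, 2.48 for Cd4, 2.22 for Blk, 2.01 for Lck, 1.99 for Zap70, 1.64 for Lat and 1.61 for Cd3d. Blk and Zap70 then did not pass (limma, adjusted p = 0.0783 and 0.0761).

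Of the B cell members Blk alone passed, and of the cytotoxic members 0 entered the test with the filter. The defining B cell genes Ms4a1, which encodes CD20, and Pax5 were at no more than 0.05 FPKM in PKD_FP, WT_FP and PKD_DMSO libraries, and Ncr1, the NK receptor gene NKp46, at no more than 0.10 in any library. Cd79b, a B cell receptor chain gene, was at 1.74 and 0.97 FPKM in PKD_FP, against 0.39 and 0.57 in WT_FP, and did not pass (0.65, 0.11 to 1.20; limma, adjusted p = 0.108). Its partner Cd79a was at 0.22 and 0.19 FPKM against 0.35 and 0.59. Cd22, an inhibitory receptor gene of B cells, averaged 0.99 ± 0.156 FPKM in PKD_FP and 0.685 ± 0.191 in WT_FP.

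Macrophage genes moved with this comparison too. Of 19 such genes 14 were higher in PKD_FP and 0 lower, with sums of 832 and 1150 FPKM in PKD_FP against 151 and 173 in WT_FP. Of 16 pan-leukocyte genes 6 were higher and 0 lower, with sums of 222 and 225 FPKM against 59.6 and 80.5. Of 10 dendritic cell genes 8 entered the test and 0 passed. At an unadjusted p under 0.05 there were 4 higher and 0 lower (limma), beside 18.9% and 12.5% of all genes. The sums of the 10 dendritic cell genes were 30.6 and 29.4 FPKM against 14.8 and 16.8. Of 10 tubule genes 5 were lower and 0 higher, with sums of 2410 and 2560 FPKM against 4830 and 4500. The part of these cells in the member values was not tested.

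**Figure D3:**
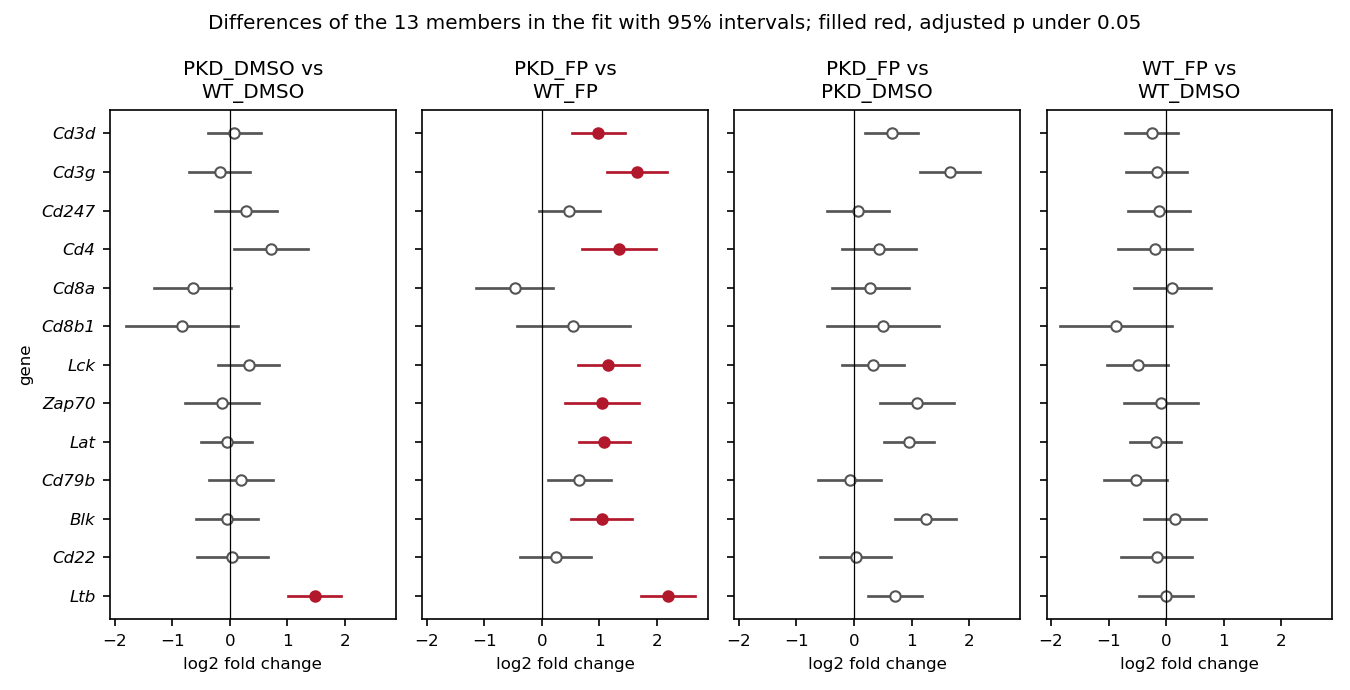
Log2 fold change of the 13 members in the fit in 4 comparisons, each titled with the group on top of the fold first, with 95% intervals from limma; filled red points have an adjusted p under 0.05. Ltb passes in both comparisons of PKD with WT kidneys and 7 more members pass under FP, while no member passes in either comparison of FP with DMSO.

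Comparing FP with DMSO in polycystic kidneys asks what the drug changed in the disease. No member passed: limma called 0 of the 13 members, beside 0.00695% of all genes higher and 0.00695% lower. At an unadjusted p under 0.05 there were 6 members higher (Blk, Cd3d, Cd3g, Lat, Ltb and Zap70) and 0 lower, where 10.3% of all genes were higher and 9.14% lower. Over all 34 members without the filter 0 passed either, beside 0.0148% of all genes higher and 0.00988% lower. There, 9 members were higher at the unadjusted level, with Cd3e, Ctla4 and Icos added, and 0 lower, beside 8.53% and 7.4% of all genes.

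Cd3g, Blk and Zap70 entered the test only through their PKD_FP values. Without the filter their adjusted p for PKD_FP against PKD_DMSO were 0.147, 0.147 and 0.158 (limma). Cd3g had the largest difference between these groups among the members tested. It was at 3.86 and 4.52 FPKM in PKD_FP libraries, against 0.51 and 0.76 in PKD_DMSO libraries, a log2 difference of 1.67 with a 95% interval of 1.14 to 2.19 (limma, adjusted p = 0.124). Blk was at 1.45 and 1.93 FPKM against 0.05 and 0.22, a difference of 1.24 (0.71 to 1.78; adjusted p = 0.124). Lat was at 3.15 and 2.92 FPKM against 0.89 and 1.29, a difference of 0.96 (0.51 to 1.40; adjusted p = 0.124). For all 3 genes both PKD_FP libraries were above both PKD_DMSO libraries and above all 4 wild-type ones.

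Zap70 was at 1.5 and 2.41 FPKM in PKD_FP, against 0.42 and 0.32 in PKD_DMSO (1.09, 0.45 to 1.73; limma, adjusted p = 0.132). Ltb was at 5.88 and 6.88 FPKM against 4.04 and 3.01 (0.71, 0.24 to 1.18; adjusted p = 0.149). Icos and Ctla4, genes of an activating and an inhibitory receptor of activated T cells, averaged 0.44 and 0.155 FPKM in PKD_FP, and 0.15 and 0.06 FPKM in PKD_DMSO. Counting libraries, 13 of 34 members had both PKD_FP values above both PKD_DMSO values and 1 (Prf1) had both below, where 27.4% and 20.8% of all genes did.

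Summed macrophage and pan-leukocyte levels did not separate these 2 groups, though single genes did, in either direction. The macrophage gene Cx3cr1 was at 22.52 and 22.94 FPKM in PKD_FP, against 8.92 and 16.22 in PKD_DMSO. The pan-leukocyte gene Arhgdib was at 49.19 and 32.02 FPKM against 56.64 and 66.98. Limma called 0 of 19 macrophage genes, with 1 higher and 0 lower at an unadjusted p under 0.05. Summed macrophage levels were 832 and 1150 FPKM in PKD_FP, and 792 and 1500 in PKD_DMSO, and pan-leukocyte sums were 222 and 225 FPKM, and 184 and 310. In both lists the PKD_FP range lay inside the PKD_DMSO range. The summed level of the 4 receptor complex genes Cd3d, Cd3e, Cd3g and Cd247 was 9.11 and 8.67 FPKM in PKD_FP, against 3.04 and 3.35 in PKD_DMSO, and that of Lck, Zap70 and Lat was 7.40 and 7.55 FPKM against 3.0 and 3.45. The 4 receptor complex genes did not differ alike. Cd3g was at 3.86 and 4.52 FPKM against 0.51 and 0.76, and Cd247 at 1.48 and 1.09 against 1.40 and 0.95 (0.07, −0.46 to 0.61; limma, adjusted p = 0.886).

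**Figure D4:**
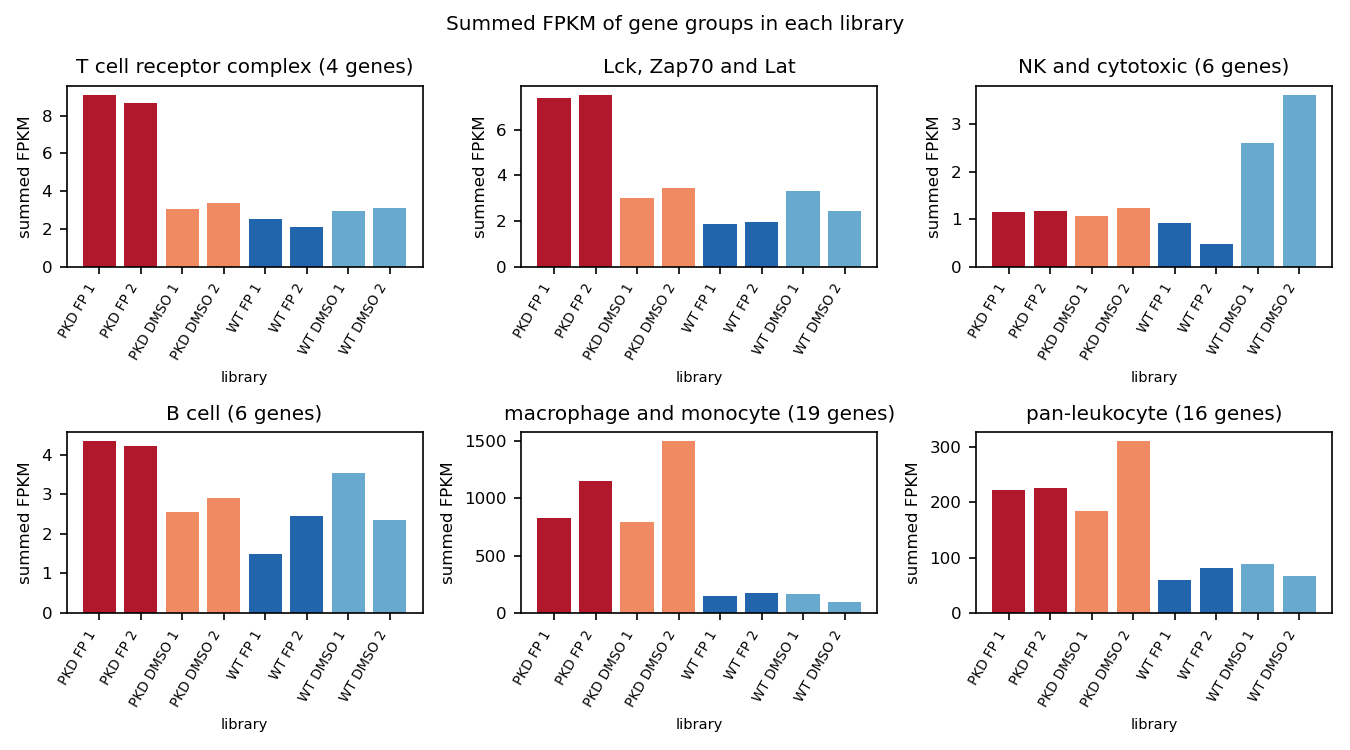
Summed FPKM of 4 groups of members, of 19 macrophage and monocyte genes and of 16 pan-leukocyte genes in each library, on linear axes from 0. Receptor complex and signalling genes stand highest in the 2 PKD_FP libraries, cytotoxic genes in the 2 WT_DMSO libraries, and macrophage genes in all 4 polycystic libraries.

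In wild-type kidneys FP gave no member call either. Limma called 0 of 13 members, with 0 at an unadjusted p under 0.05, and 0 of 14391 genes in all (0.0% in either direction). Without the filter 0 of 34 members passed, beside 0.00494% of all genes higher and 0.00988% lower. There, 7 members were lower and 0 higher at an unadjusted p under 0.05 (Cd79b, Gzma, Gzmb, Klrd1, Ms4a1, Nkg7 and Pax5), beside 0.721% of all genes lower and 1.46% higher.

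Of the 6 cytotoxic genes 5 had their highest group mean in WT_DMSO, Prf1 being the exception. Nkg7, a granule membrane protein gene of NK and cytotoxic T cells, was at 0.25 and 0.09 FPKM in WT_FP libraries, against 0.98 and 1.29 in WT_DMSO libraries. Gzma, the granzyme A gene, was at 0.30 and 0.08 FPKM against 0.49 and 1.12, and Klrd1, which encodes the NK receptor chain CD94, at 0.15 and 0.08 against 0.42 and 0.71. For these genes the WT_FP libraries were below both WT_DMSO libraries, and the 6 cytotoxic members together summed to 0.91 and 0.47 FPKM in WT_FP, against 2.60 and 3.62 in WT_DMSO. Both WT_FP values were below both WT_DMSO values for 17 of the 34 members and above them for 0, where 5.44% and 15.3% of all genes were.

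Lck and Cd8b1 were among these 17 members and Cd8a was not. Lck was at 0.34 and 0.82 FPKM in WT_FP, against 1.36 and 1.04 in WT_DMSO, a log2 difference of −0.49 (−1.02 to 0.04). Cd8b1 was at 0.06 and 0.92 FPKM against 2.16 and 1.17, while Cd8a, whose product pairs with it, was at 2.05 and 1.14 against 1.15 and 1.62. WT_FP replicate 1 thus held the highest Cd8a and the lowest Cd8b1 of all 8 libraries.

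Whether the response to FP differed between the genotypes was tested as an interaction. No member passed: limma called 0 of 13, and 0.0% of all genes in either direction. At an unadjusted p under 0.05 there were 7 members above 0 (Blk, Cd3d, Cd3g, Lat, Lck, Ltb and Zap70) and 0 below, where 4.45% and 6.78% of all genes were. Without the filter 0 of 34 members passed, beside 0.0198% of all genes above 0 and 0.0148% below, and at an unadjusted p under 0.05 there were 14 members above 0 and 0 below, beside 3.99% and 5.7%. Cd3g had an interaction of 1.83 with a 95% interval of 1.09 to 2.58 (limma, adjusted p = 0.377). Lat had 1.13 (0.51 to 1.76, adjusted p = 0.384) and Blk 1.09 (0.34 to 1.84, adjusted p = 0.393). Without the filter, which Cd3g and Blk met only through PKD_FP, the adjusted p of each of these genes was 0.45 (limma). The comparisons of FP with DMSO, of PKD with WT under FP and this one share the PKD_FP libraries, so they are not separate evidence.

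Genes outside the 34 gave the surroundings of these values, from lists of other T cell, NK, B cell and lymphocyte-signal genes. Of 33 other T cell genes 19 entered the test. Of these, 4 were higher and 1 lower in PKD_DMSO against WT_DMSO, and 4 higher and 0 lower in PKD_FP against WT_FP. Over all genes 14.8% were higher and 7.52% lower in the first comparison, and 8.71% and 5.23% in the second. The same shares apply to the lists that follow, and no list was tested as a set. Tcf7, a transcription factor gene of T cells that kidney epithelium may share, averaged 5.14 ± 0.608 FPKM in PKD_FP and 3.88 ± 1.12 in PKD_DMSO, against 1.18 ± 0.148 in WT_FP and 0.85 ± 0.311 in WT_DMSO. Fyb and Lcp2, adaptor genes that T cells share with myeloid cells, were higher in both comparisons, by 1.39 and 0.91 under FP and by 1.55 and 1.02 under DMSO on the log2 scale.

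Cxcr6, a chemokine receptor gene of tissue-resident T cells, averaged 2.92 ± 0.0636 FPKM in PKD_FP, against 0.565 ± 0.375 in WT_FP (log2 fold change 1.34; limma with Benjamini-Hochberg, adjusted p = 0.0238). Like Cd3g, Zap70 and Blk, it entered the test only through its PKD_FP values, and its fit without the filter is not given here. Bcl11b, needed for T cell identity, was lower in PKD_DMSO, at 0.80 ± 0.156 FPKM against 3.18 ± 1.53 in WT_DMSO (−1.17; adjusted p = 0.0268). Its direction was opposite to that of Tcf7. In the comparisons of FP with DMSO 0 of the 19 genes tested passed (limma). At an unadjusted p under 0.05 there were 2 higher and 2 lower in polycystic kidneys, beside 10.3% and 9.14% of all genes. In wild-type kidneys there were 0, beside 0.91% higher and 0.361% lower of all genes.

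Of 23 other NK and cytotoxic genes 5 entered the test. Serpinb9, Ccl5 and Il18rap were higher in PKD_DMSO than in WT_DMSO, and Serpinb9 and Ccl5 in PKD_FP than in WT_FP. Ccl5, a T cell attractant gene, averaged 6.27 ± 1.51 FPKM in PKD_FP and 8.12 ± 1.41 in PKD_DMSO, against 0.745 ± 0.219 in WT_FP and 3.37 ± 0.622 in WT_DMSO. Its lowest levels were in WT_FP, as for Nkg7.

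Of 24 other B and plasma cell genes 9 entered the test, with 1 higher (Sdc1, a syndecan gene that epithelium also expresses) and 1 lower (Derl3, a gene of protein quality control in secretory cells) in PKD_DMSO, and 2 higher (Sdc1 and Cd37) in PKD_FP against WT_FP. The immunoglobulin and T cell receptor constant genes sought for these lists were not among the 20240 genes used.

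Of 21 lymphocyte survival and attraction signals 16 entered the test, and 5 were higher and 1 lower in PKD_DMSO, and 4 higher and 0 lower in PKD_FP against WT_FP. Cxcl16, which encodes the ligand of CXCR6, averaged 58.1 ± 0.389 FPKM in PKD_FP and 69.3 ± 1.33 in PKD_DMSO, against 19.2 ± 1.71 in WT_FP and 21.7 ± 4.55 in WT_DMSO. It was higher in both comparisons of the genotypes, by 1.55 under FP and 1.65 under DMSO on the log2 scale (limma, adjusted p = 0.00642 and 0.0028). Il15, a survival cytokine of NK cells and memory T cells, was lower in PKD_DMSO, at 4.22 and 6.22 FPKM against 17.69 and 14.23 in WT_DMSO (−1.46; adjusted p = 0.0121).

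The remaining receptors and transcription factors stayed low. Il7r, the interleukin 7 receptor gene that T cell survival depends on, averaged 1.25 ± 0.445 FPKM in PKD_FP and 0.715 ± 0.262 in PKD_DMSO, against 0.405 ± 0.0354 in WT_FP and 0.275 ± 0.191 in WT_DMSO. Foxp3, the factor of regulatory T cells, was at 0.05 to 0.17 FPKM over the 8 libraries, and Tbx21, the factor of type 1 responses, at 0.00 to 0.14. Eomes, a related factor of NK and memory CD8 T cells, was at 0.18 to 0.52, and Cd28, the main costimulatory receptor gene, at 0.00 to 0.07. Il2rb, Cd5, Cd2 and Prf1 ranged from 0.03 to 0.33, from 0.00 to 0.32, from 0.13 to 0.91 and from 0.03 to 0.22 FPKM.

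Ranked by group mean, 20 of the 34 members were highest in PKD_FP, 3 in PKD_DMSO, 2 in WT_FP and 9 in WT_DMSO, where 31.7%, 28.5%, 24.1% and 15.6% of all genes were. The 20 included all 4 receptor complex genes, Lck, Zap70 and Lat and all 6 adhesion and costimulation genes, and the 9 in WT_DMSO included 5 of the 6 cytotoxic genes. All 4 polycystic libraries were above all 4 wild-type libraries for 6 members (Cd247, Cd4, Cd6, Il7r, Lck and Ltb) and below them for 1 (Cd79a), where 17.4% and 9.41% of all genes were, so the count of higher members is near the background.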

How the data were processed

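Whole-kidney poly(A) RNA was measured in 8 libraries, 2 in each of 4 groups taken from the sample titles. The authors deposited 1 value per gene and library, read here as FPKM from the values, since the file headers name no unit. The submitters' processing notes list Bowtie2, DESeq2 and mm10 with no version and no role. The sources used here do not state strandedness. Each file held 20245 rows, of which 4 rows of 2 symbols that occur more than once and 1 row without a symbol were left out, leaving 20240 genes.

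Differences were tested with limma 3.58.1 in R 4.3.3 on log2(FPKM + 1), with 4 group means in 1 fit of all 8 libraries, a trended and robust prior, and Benjamini-Hochberg adjustment at 0.05. A gene entered if 2 or more libraries reached 1 FPKM (14391 did). With 2 libraries against 2, an exact permutation test cannot go below p = 0.33. Alternatives were no filter, a filter of 4 libraries, a pseudocount of 0.1, median-of-ratios and quantile scaling, a replicate term, and each library left out.

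The members and lists were chosen with earlier results of these data known. Values in every library are given for members with a mean of at least 1 FPKM or a call, and for some others named for their role. From each other list at most 4 called genes with the highest mean are named. Depth was estimated from the spacing of low values in genes with 1 transcript, so fragment counts are approximate. All 34 members matched the annotation on GRCm38, and 5 of them overlap another gene in the files, among them Ltb and Lat. Ranges of counts per library and intervals cover the spread of these samples only.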

Additional observations from a re-analysis of the deposited data

How the results depend on the processing

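Over 31 fold changes of named members and 421 alternatives, 386 kept their direction and side of the threshold, 35 kept the direction but no longer passed, and 0 turned round. All 35 were calls of PKD_FP against WT_FP. The 31 were those with an unadjusted p under 0.1 in the main fit (limma). Those never called counted as kept by staying uncalled, so the 386 do not measure how stable the calls were. In that comparison 8 members passed, and 5 passed with the replicate block (Blk, Cd3g, Cd4, Lat and Ltb, while Lck, Cd3d and Zap70 had adjusted p of 0.0505, 0.0515 and 0.0836 by limma) and 5 of 7 tested where 4 or more libraries had to reach 1 FPKM; that filter itself removed Cd3g, Zap70 and Blk. Leaving out each library gave 1 to 8 calls, and the cause was not tested. In PKD_DMSO against WT_DMSO 1 member passed, 3 passed without the low-value filter, which adds genes to the test, and 1 passed without each library in turn. The other comparisons gave 0 calls under all alternatives. Replicate numbers do not pair the samples by the labels, and deviations of same-numbered libraries from their group means correlated between −0.515 and 0.485. Ltb passed in all 14 alternatives of both genotype comparisons, with adjusted p from 0.00466 to 0.0315 under DMSO and from 0.00345 to 0.0367 under FP (limma). Median-of-ratios scaling moved the median over all genes tested to 0.00 on the log2 scale in PKD_DMSO against WT_DMSO, beside 0.12 without it. At a line of 0.5 FPKM the groups held 17 members in PKD_FP, 12 in PKD_DMSO, 8 in WT_FP and 15 in WT_DMSO. Depth limits the low members most, 19 of which rest on fewer than 100 fragments in all.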

Other observations

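These genes were chosen after their values were seen, and no test was made. Ranked by how far the lower PKD_FP library lay above the highest of the other 6 on log2(FPKM + 1), Cd3g was at rank 3 of 14391 genes, with a gap of 1.35, and Cxcr6 at rank 6, with a gap of 1.07. Both PKD_FP libraries were above the other 6 for 12.7% of these genes. Cd3g, Cxcr6 and Cd163l1 were in the ranked set only through their PKD_FP values, which also set their ranks, so the ranks are no separate evidence. Cd163l1, a scavenger receptor gene that mouse gamma-delta T cells express, was at rank 48, with 2.07 and 2.83 FPKM in PKD_FP and 0.21 and 0.60 in PKD_DMSO, against 0.92 and 0.65 in WT_FP and 0.16 and 0.31 in WT_DMSO.

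Some low-level T cell genes had the same order and others did not. The chemokine receptor gene Ccr7 averaged 0.435 FPKM in PKD_FP and 0.98 in PKD_DMSO, and the cytokine gene Ifng was listed at 0 in both PKD_FP libraries. Pdcd1, which encodes the inhibitory receptor PD-1, was at 0.61 and 0.84 FPKM in PKD_FP libraries and at no more than 0.17 in the others. Il17a, a cytokine gene of T cell subsets, was at 0.10 and 0.50 FPKM in PKD_FP, at 0.06 in WT_FP replicate 1 and listed at 0 in the other 5 libraries.

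The ratio of Cd4 to Cd8a FPKM was 1.54 and 5.64 in PKD_FP and 2.50 and 3.29 in PKD_DMSO, against 0.161 and 0.316 in WT_FP and 0.548 and 0.272 in WT_DMSO. All 4 polycystic libraries were above all 4 wild-type ones in this ratio, but it depends on the choice of Cd8a. Taken to Cd8b1 the genotypes would overlap. In WT_FP replicate 1 Cd4 was at 0.33 and Cd8b1 at 0.06 FPKM, against 1.89 and 1.86 in PKD_FP replicate 1. Many of these values lie near or below 1 FPKM, Cd4 is not limited to T cells, and the ratio was not tested. Thy1, a T cell surface gene that fibroblasts also express, was at 39.65 and 91.04 FPKM in PKD_FP and 26.71 and 40.85 in PKD_DMSO, against 2.79 and 4.46 in WT_FP and 2.98 and 2.86 in WT_DMSO.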
